A study of Mus musculus with 15 samples.

Results

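The comparison described here sets 5 libraries from white adipocytes kept at 31°C for 12 days against 5 libraries from white adipocytes kept at 31°C for 1 day, as their sample titles give it. These are 10 of the 15 libraries of the series, and the other 5, from cells that stayed at 37°C (day 0), are given only as reference levels. The adipocytes of all groups were differentiated from mesenchymal stem cells of C57BL/6J mice, which the study's methods trace to the ear. The labels and a passage of the methods give methylisobutylxanthine, dexamethasone, insulin and troglitazone as inducers, whereas another passage gives rosiglitazone in place of troglitazone. Every group was harvested on day 16 of differentiation, and the day 1 and day 12 cells were both at 31°C at harvest. The day 12 cells had been moved to 31°C on day 4 and the day 1 cells on day 15, so that time at 31°C and the stage of differentiation at the move cannot be told apart. Whether separate mice or dishes stand behind the replicates is stated neither in the labels nor in the methods, and p-values cover the spread between libraries only.

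White adipocytes store triglyceride in lipid droplets, release fatty acids by lipolysis and secrete adipokines and complement proteins. Many depots near the body surface sit well below core temperature. Cooling slows enzymes and stiffens membranes, and mammalian cells answer mild cold with RNA-binding proteins such as CIRBP and RBM3.

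Of the 18804 genes in the count table, 14293 passed the filter on low counts and were tested with edgeR. Levels are given as CPM, read counts scaled to a common library size with TMM factors, means are given ± SD over 5 libraries, and log2 fold changes (day 12 over day 1) are given ± SE. Calls needed a fold change over 1.5 in addition to an adjusted p under 0.05. By this rule 1510 genes (10.6%) were higher at day 12 and 1219 (8.53%) were lower, 19.1% together. The values of day 1 and day 12 did not overlap for 2337 of the genes called, and for 52.5% of all genes tested. With library totals alone as the scale, which moved the median log2 fold change of all genes from 0.01 to 0.18, the counts were 2248 higher and 843 lower. With the 4 of the study's qPCR reference genes found in the table as the scale they were 10196 and 255, at a median of 0.80. B2m, which is among those 4, was itself called lower, and without it the counts were 3822 and 596, at a median of 0.37. Directions are given relative to the TMM scale, and genes whose direction turned under another scale are named as such. With the 4 reference genes as the scale, 33 more of the 150 genes checked lost their call without turning, all of them called lower here, among them Fth1 (log2 fold change -0.016), Gas6 (-0.049), Slc2a4 (-0.077), Cdkn1a (-0.42), Adipoq (-0.49) and Car9 (-0.56). With library totals as the scale, 8 lost it (Cirbp, Bgn, Slc1a4, Aldh1l1, Irs2, Pfkp, Vegfa and Pgd) and Myc gained one.

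The first principal component of the 10 libraries held 64.3% of the variance and separated the groups, against 5.30% for the second. Day 1 totals lay between 74430465 and 105322757 counts, and those of day 12 between 64648178 and 91338649. The labels number 7 of these libraries in a lower series (3 at day 1, 4 at day 12) and 3 in a higher one. Within the lower series alone, 1401 genes were higher and 1190 lower. Low-level genes were called more often: below 1 CPM, 496 of 2227 genes were higher and 366 lower, whereas at 100 CPM or more 51 of 1870 were higher and 189 lower. Changes over 4-fold were seen for 148 genes that rose and 129 that fell, and changes over 16-fold for 5 and 7.

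**Figure D1:**
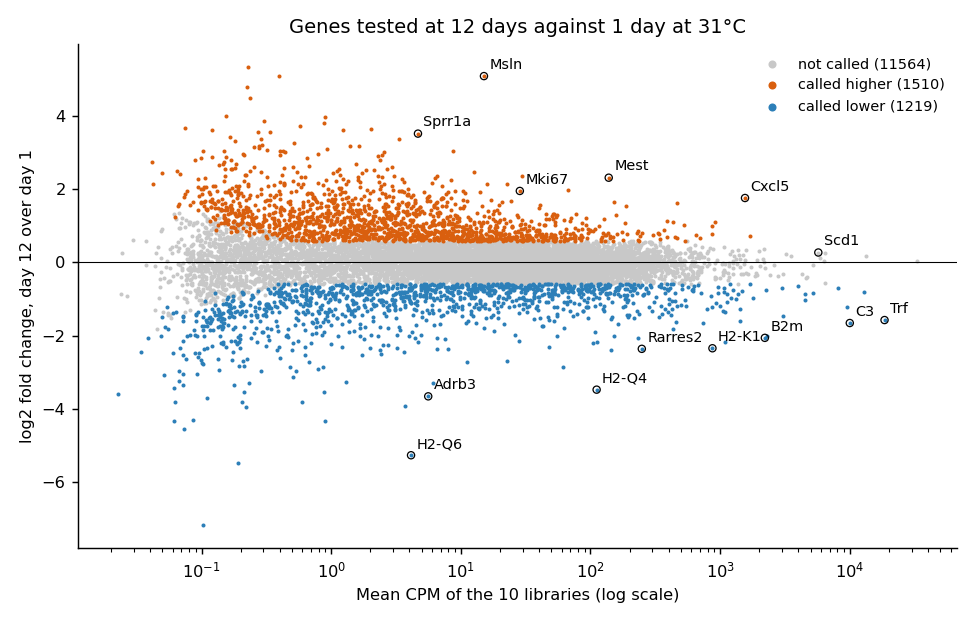
Each point is 1 of the 14293 genes tested, with its mean CPM over the 10 libraries on a log axis and its log2 fold change of day 12 over day 1; orange points were called higher, blue points lower and grey points were not called. Among abundant genes most calls lie below 0, with Trf and C3 at the right, and H2-Q6 and Msln lie farthest from 0 among the labelled genes.

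Among called genes whose groups did not overlap and whose mean reached 1 CPM, the largest increase was that of Msln, which encodes mesothelin, a surface protein known from mesothelial cells. Its level was 0.755, 1.12, 0.826, 0.921 and 0.725 CPM in the day 1 libraries and 25.2, 21.96, 29.6, 36.6 and 32.998 CPM in the day 12 libraries. Every day 12 library was more than an order of magnitude above every day 1 library, and the log2 fold change was 5.09 ± 0.17 (adjusted p = 7.68e-18). Next came F2rl1, a protease-activated receptor, which rose 12.4-fold from 0.308 ± 0.0661 to 3.78 ± 0.326 CPM. Lamc3, a laminin chain, rose 12.3-fold to 2.29 ± 0.347 CPM. Sprr1a, an envelope protein of stratified epithelia, went from 0.607 to 0.957 CPM to 6.85 to 10.1 CPM, an 11.4-fold change. The others of the 10 largest were Adamts16, Svip, Gpr84, Aif1l, Vstm2a and Serpina3h, with changes between 7.64-fold (Serpina3h) and 10.3-fold (Adamts16). The highest of their day 1 levels was that of Aif1l, an actin-binding protein, at 1.51 to 2.43 CPM. Serpina3h belongs to a cluster of similar genes whose reads may be split between copies, and 39.5% of the exon bases of Gpr84 lie opposite another gene.

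The largest decreases included 3 class I histocompatibility genes of the H2-Q family. H2-Q6 stood at 8.07, 7.64, 8.46, 7.39 and 8.72 CPM at day 1 and at 0.1202, 0.0883, 0.243, 0.257 and 0.331 CPM at day 12, which is 38.6-fold lower (log2 fold change -5.27 ± 0.17, adjusted p = 2.63e-18). H2-Q8 fell 15.1-fold and H2-Q4, the most abundant of the 3, from 205 ± 7.37 to 18.4 ± 2.39 CPM. Members of this family resemble each other closely, so the share of each gene is uncertain. Adrb3, the β3-adrenergic receptor through which catecholamines start lipolysis in mouse fat cells, was at 10.9, 11.5, 10.05, 9.71 and 9.85 CPM and then at 0.802, 1.198, 0.486, 0.741 and 0.868 CPM. It was 12.6-fold lower at day 12 with no overlap of the groups, and its mean at day 0 was 56.4 CPM, although 24.9% of its exon bases lie opposite another gene. Spon1, a matrix protein, fell from 107 ± 6.85 to 14.7 ± 0.939 CPM. Esm1, a secreted proteoglycan, fell 6.43-fold and Svop, a transporter-like protein of synaptic vesicles, 9.75-fold. Scg2, a granin of secretory granules, Ces2e, a carboxylesterase, and C1qtnf3, a relative of adiponectin, completed the list with changes between 5.78-fold (C1qtnf3) and 9.62-fold (Scg2).

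The largest changes in CPM were decreases. On the TMM scale, changes in mean CPM summed to 182287 over the genes that lay lower and to 65582 over those that lay higher, and 10 genes made up 33.8% of the first sum. The gap between these sums follows from the TMM factors and is not a difference in RNA share. Trf, which encodes the iron carrier transferrin, was the second most abundant of the 20 genes followed here at day 1, with 28191, 27940.4, 27204, 28415 and 27028 CPM. At day 12 it was at 9215, 9043, 9391, 9336 and 9547 CPM, 2.98-fold lower (adjusted p = 9.65e-22), although 63.5% of its exon bases are shared with another gene model on the same strand. C3, the central complement component, fell from 14993 to 15338 CPM to 4643 to 4954 CPM. Hp, the haemoglobin-binding haptoglobin, fell 2.32-fold and Fth1, the ferritin heavy chain that stores iron, 1.75-fold. Comp, a cartilage matrix protein, went from 3708 ± 71.4 to 919 ± 37.2 CPM, and B2m, the light chain of class I molecules, from 3570.3 ± 95.8 to 855 ± 93.2 CPM. Bgn, Gsn, Gas6 and C4b fell between 1.63-fold (Bgn) and 2.75-fold (C4b). For Bgn the direction turned with the 4 reference genes as the scale, to a log2 fold change of 0.08.

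The 10 largest increases in CPM made up 14.7% of their sum, and 4 of these 10 genes were called. Cxcl5, a chemokine that attracts neutrophils, rose from 639, 677, 764, 639.9 and 829 CPM to 2492, 2286, 2465, 2325 and 2434 CPM (log2 fold change 1.76 ± 0.073). Steap4, a metalloreductase induced in fat cells by inflammatory signals, rose 1.66-fold, S100a4 2.16-fold and Il1rl1, the receptor of interleukin 33, 1.99-fold. Of the exon bases of S100a4, 51.7% are shared with another gene model. The remaining 6 stayed under the fold limit: Spp1, Thbs1, Fn1, Scd1, Timp2 and Col12a1 had log2 fold changes between 0.05 (Fn1) and 0.36 (Timp2). With the 4 reference genes as the scale all 6 were called higher, at 0.83 (Fn1) to 1.15 (Timp2). Scd1, the desaturase that makes monounsaturated fatty acids, was at 4365, 5770.2, 5477, 5159 and 5156 CPM at day 1 and 5664, 6162, 6658, 6435 and 6318 CPM at day 12, with overlapping groups (log2 fold change 0.27 ± 0.067, adjusted p = 0.00109). Its mean at day 0 was 2208 CPM. The 20 most abundant genes took 19.3% to 19.8% of the counts at day 1 and 15.4% to 15.9% at day 12.

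**Figure D2:**
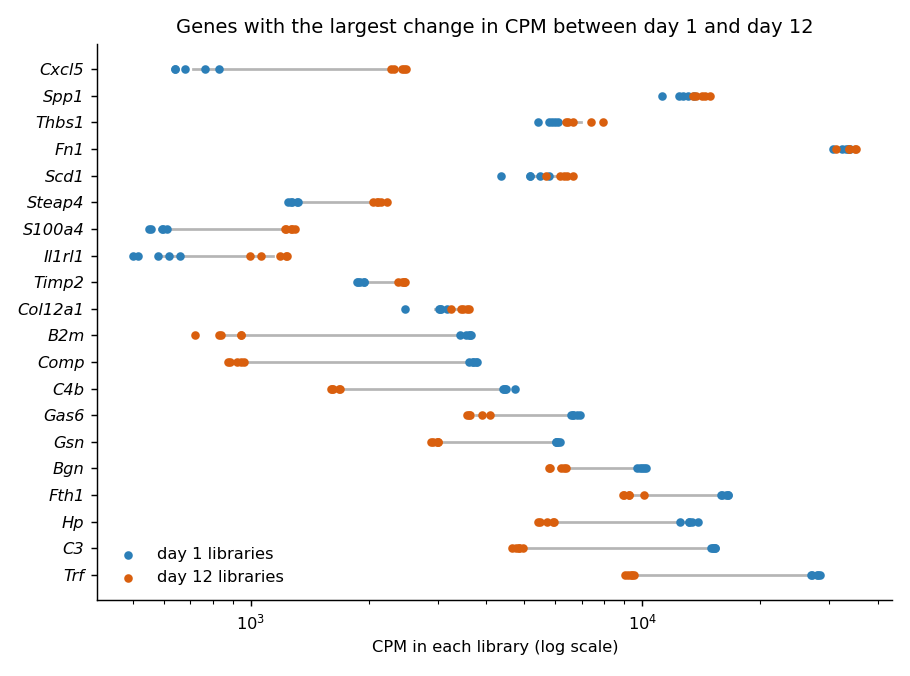
Each row is 1 of the 20 genes with the largest differences in mean CPM, with the 5 day 1 libraries in blue and the 5 day 12 libraries in orange on a log axis of CPM, joined by a grey line between the group means. The orange points of the lower 10 genes lie clear of the blue ones, from Trf, at 9306 against 27756 CPM, to B2m, whereas the groups overlap for Fn1, Spp1 and Scd1.

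Genes of cell division had the largest share of increases among the 34 lists of genes followed here. Adipocytes in culture are mostly postmitotic, and division genes are expressed in the dividing cells of such a culture. Of 40 genes for mitosis and cytokinesis, all of them tested, 37 were higher and none was lower, with a median log2 fold change of 1.52 against 0.01 for all genes tested. Mki67, the proliferation marker Ki-67, was at 12.96, 12.6, 13.5, 9.78 and 9.73 CPM at day 1 and 44.2, 39.8, 49.95, 46.1 and 46.4 CPM at day 12. No day 12 library was near the day 1 range, and the log2 fold change was 1.95 ± 0.092 (adjusted p = 3.99e-15). Kif11, a spindle motor, rose 3.86-fold, Bub1, a checkpoint kinase, 3.798-fold and Top2a, which untangles replicated chromosomes, from 21.03 ± 2.34 to 59.2 ± 3.599 CPM. Cks2, Espl1 and Pttg1 were the 3 members not called. At day 0 the mean of Mki67 was 12.6 CPM, within its range at day 1. In these bulk libraries, more cells of a kind and more RNA per cell cannot be told apart.

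Promoters of division genes are known to carry the CHR element, read by the MuvB complexes, and CCAAT boxes, bound by NF-Y. In the 250 bases before the transcription start given by RefSeq (GRCm38.p6), available for 33 of the 40 genes, a CHR element (TTTGAA or TTTAAA, either strand) was found in 17 genes, or 51.5%, against 25.2% of all 32851 promoters of the table. A CCAAT box (CCAAT, either strand) was found in 23, or 69.7%, against 33.8%. These are matches of letters, not binding sites, and the numbers are descriptions. Shares of the list count genes, with 1.06 promoters per gene, whereas the background counts single promoters over the whole table. How much of the gaps comes from this choice of background was not tested. The 3 genes with the largest increases that held a CHR element are shown with 30 bases on each side of the match where the searched stretch allows it, 5′ to 3′ on the gene's strand, with each match in capitals and overlapping matches run together.
Mki67 (chr7:135716442-135716507, minus strand): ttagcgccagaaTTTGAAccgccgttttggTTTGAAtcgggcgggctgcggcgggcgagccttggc
Kif11 (chr19:37376333-37376381, plus strand): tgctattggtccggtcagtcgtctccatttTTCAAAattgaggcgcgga
Ect2 (chr3:27153957-27154022, minus strand): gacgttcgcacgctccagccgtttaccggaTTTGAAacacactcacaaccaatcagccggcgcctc

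DNA replication genes were also called upward alone. Of 38 genes for replication and nucleotide synthesis, all tested, 22 were higher and none lower (median log2 fold change 0.71). Tk1, the thymidine kinase of S phase, had levels of 3.37, 3.76, 2.75, 2.02 and 2.81 CPM at day 1 and 13.3, 12.8, 14.6, 13.3 and 15.3 CPM at day 12, 4.71-fold higher. Exo1, an exonuclease of mismatch repair, rose 4.09-fold and Pole, the catalytic subunit of DNA polymerase epsilon, 3.38-fold. Promoters were available for 30 of the 38, under the 80% set as the minimum, so a comparison of motif shares is void. As examples only, the matches to the E2F site (TTTCCCGC, TTTGGCGC, TTTCGCGC or TTTGCCGC, either strand, found in 1.86% of all promoters) with the largest increases are those of Mcm5, a subunit of the replicative helicase, and Uhrf1, which maintains DNA methylation.
Mcm5 (chr8:75109330-75109397, plus strand): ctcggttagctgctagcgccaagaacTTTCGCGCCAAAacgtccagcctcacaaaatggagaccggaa
Uhrf1 (chr17:56304098-56304165, plus strand): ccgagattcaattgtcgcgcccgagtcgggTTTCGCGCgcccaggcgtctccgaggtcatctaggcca

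Some inhibitors of the cycle and p53 targets fell. Of 26 cyclin-dependent kinase inhibitors and p53 targets tested, 9 were lower and 1, Ccnd1, was higher (median log2 fold change -0.32). The other 16 were not called, and 8 of the 26 lay above 0. Cdkn1a, which encodes the inhibitor p21, fell from 756, 755, 748, 772 and 794 CPM to 333, 348, 323, 322 and 333 CPM (adjusted p = 1.1e-20). Gadd45g, a growth arrest gene, fell 2.31-fold and Phlda3, a p53 target that restrains AKT, 1.94-fold. Ccnd1, the G1 cyclin D1, is not an inhibitor, and it rose from 244 ± 5.63 to 421 ± 13.9 CPM, with 23.4% of its exon bases opposite another gene. Of 31 MYC and ribosome biogenesis genes tested of 32 listed, 2 were higher and none lower. The share called higher, 6.45%, lay under the 10.6% of all genes. Dkc1, a pseudouridine synthase, rose 1.99-fold and Ddx21, a nucleolar helicase, 1.52-fold. Myc itself had 28.8 to 32.2 CPM at day 1 and 40.6 to 43.8 CPM at day 12, a log2 fold change of 0.46 ± 0.038 under the fold limit.

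**Figure D3:**
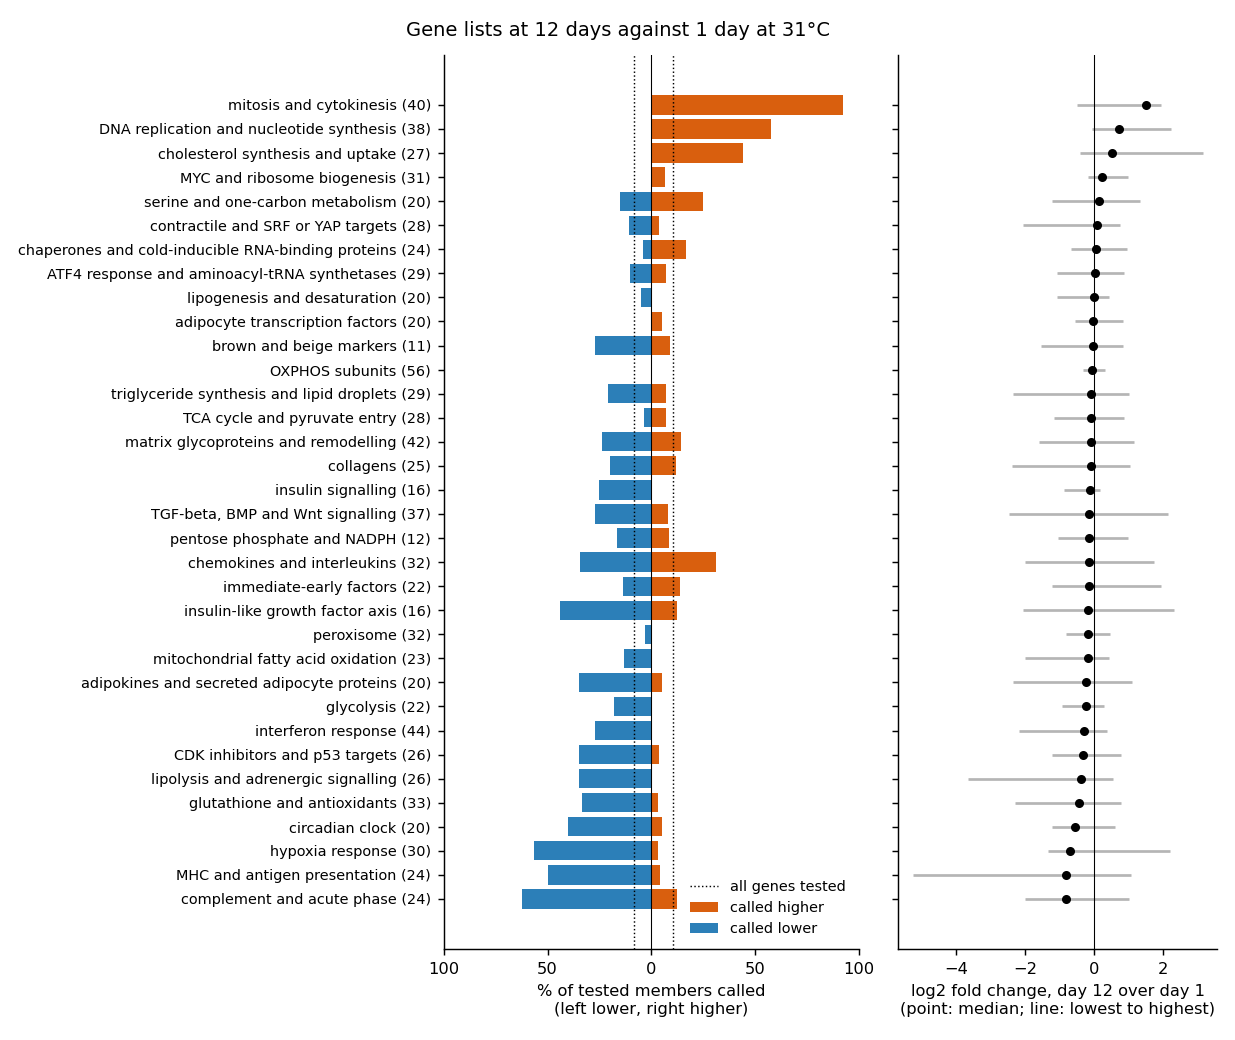
Rows are the 34 gene lists with their number of tested members; the left panel gives the percent of members called lower (blue) and higher (orange) beside the percent among all genes tested (dotted), and the right panel the median log2 fold change with its lowest and highest member. Mitosis and DNA replication stand at the top with medians of 1.52 and 0.71, and complement, class I presentation and hypoxia genes at the bottom with medians of -0.82, -0.81 and -0.70.

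Cholesterol genes were called in the upward direction alone. Cells make cholesterol by the mevalonate pathway, which SREBP-2 controls. Of 27 genes tested of 28 listed, 12 were higher and none lower (median log2 fold change 0.52). Fdps, the farnesyl diphosphate synthase, rose 2.18-fold, and 26.7% of its exon bases are shared with another model on its strand. Cyp51, the lanosterol demethylase, was at 17.7, 18.3, 20.1, 19.4 and 18.9 CPM at day 1 and 36.4, 34.1, 42.1, 40.6 and 39.2 CPM at day 12, 2.04-fold higher with no overlap of the groups.

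Genes of serine and one-carbon metabolism were called in both directions. In the list of 20 serine and one-carbon genes, 5 were higher and 3 lower (median 0.14). Phgdh, the first enzyme of serine synthesis, rose from 27.96, 30.7, 30.1, 28.1 and 28.3 CPM to 65.7, 66.1, 63.3, 67.4 and 67.4 CPM, and Psat1, the second, rose 2.51-fold. The transporters Slc1a5 and Slc1a4, which carry glutamine and neutral amino acids, fell 2.34-fold and 1.64-fold, although with the 4 reference genes as the scale Slc1a4 turned to a log2 fold change of 0.08. Aldh1l1, a folate dehydrogenase, fell 1.56-fold and turned to 0.14 with that scale. Of 29 ATF4 targets and aminoacyl-tRNA synthetases, 2 were higher and 3 lower. These shares, 6.90% and 10.3%, lay near the 10.6% and 8.53% of all genes.

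Several secreted adipocyte products fell, while 19 of 20 transcription factors of the fat cell were not called. Of all genes tested 19.1% were called, so most members of a list would stay uncalled in any case. Of 20 adipokines and secreted proteins tested of 21 listed, 7 were lower and 1 higher (median log2 fold change -0.24). Adipoq, which encodes adiponectin, was at 1149.9, 1078, 1129, 1163 and 1111 CPM at day 1 and 462, 479, 459.5, 453 and 467 CPM at day 12, against a mean of 1095 CPM at day 0. The groups at days 1 and 12 were far apart, with a log2 fold change of -1.28 ± 0.029 (adjusted p = 5.01e-21). Rarres2, the precursor of chemerin, fell 5.14-fold to 81.02 ± 1.72 CPM, with 33.6% of its exon bases opposite another gene. Apoe, a lipoprotein component, fell 2.72-fold, Rbp4, the retinol carrier, 2.505-fold and Cfd, the complement protease adipsin, 2.18-fold. Lep, which encodes leptin, did not pass the test at 1.34 ± 0.311 and 1.304 ± 0.322 CPM (adjusted p = 0.875).

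Of 20 adipocyte transcription factors, 1 was higher and none lower, at a median of -0.03. At an adjusted p under 0.05 alone, 5 were higher and 8 lower. Pparg, the master regulator of adipogenesis, had 96.4, 90.2, 100.2, 100.5 and 92.1 CPM at day 1 and 74.97, 82.8, 79.9, 75.5 and 79.96 CPM at day 12, a log2 fold change of -0.29 ± 0.034. Cebpa, its partner, had one of -0.31 ± 0.042. Fabp4, the fatty acid carrier of fat cells, lay on the other side at 0.21 ± 0.045, and Plin1, which coats the lipid droplet, at -0.26 ± 0.037. These 4 had an adjusted p under 0.05 and remained under the fold limit. Pparg, Cebpa and Plin1 changed direction with the 4 reference genes as the scale, at log2 fold changes of 0.50, 0.48 and 0.53. Fabp4 was called higher with that scale, at 1.00. Of 20 lipogenesis and desaturation genes tested, only Thrsp, a lipogenic nuclear protein, was called (2.12-fold lower).

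Among genes of triglyceride storage the share called higher, 6.897%, lay under that of all genes, 10.6%, and the share called lower, 20.7%, lay over the 8.53% of all genes. Of 29 tested of 30 listed, 2 were higher and 6 lower (median -0.07). Cidec, which drives fusion of lipid droplets, rose from 26.3, 32.3, 27.3, 28.8 and 29.6 CPM to 56.8, 63.7, 55.5, 62.2 and 56.7 CPM, against a mean of 177 CPM at day 0. Agpat2, an acyltransferase of triglyceride synthesis, rose 1.67-fold. Pnpla3, a droplet lipase and acyltransferase, fell to 0.471 to 0.858 CPM from 3.11 to 3.57 CPM, and its mean at day 0 was 18.9 CPM. Mogat1, a monoacylglycerol acyltransferase with 12.8% of its exon bases opposite another gene, fell 4.78-fold and Lpin1, a phosphatidate phosphatase, 1.98-fold.

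Of 26 lipolysis and adrenergic genes tested of 28 listed, 9 were lower and none higher (median -0.38). Relative to all genes this median was -0.39, and it was -0.13 with the filter at 10 CPM. Beside Adrb3, Niacr1, the niacin receptor that restrains lipolysis, fell 3.99-fold from 3.24 ± 0.512 to 0.801 ± 0.164 CPM. Ces1f, a carboxylesterase, fell 3.33-fold. Of 16 insulin signalling genes, 4 were lower and none higher: Irs1, Irs2, Slc2a4 and Slc2a1. Slc2a4, the insulin-responsive glucose transporter GLUT4, was at 12.9, 14.2, 14.8, 15.2 and 15.6 CPM and then at 8.11, 8.55, 7.202, 7.97 and 8.05 CPM, 1.83-fold lower. Slc2a1, the basal transporter GLUT1, fell 1.69-fold and Irs2, an insulin receptor substrate, 1.57-fold, while with the 4 reference genes as the scale their log2 fold changes turned to 0.03 and 0.14.

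None of 56 subunits of oxidative phosphorylation was called by edgeR or by DESeq2 in either direction. Their log2 fold changes ran from -0.31 to 0.31 with a median of -0.07, and 13 lay higher and 27 lower at an unadjusted p under 0.05. In the 14 cases in which a list had no gene called in a direction, DESeq2 called none there either. Of 23 genes of mitochondrial fatty acid oxidation, 3 were lower and none higher. Ucp2, a mitochondrial carrier, fell from 35.3, 45.7, 38.4, 41.8 and 48.5 CPM to 11.002, 9.84, 10.7, 11.3 and 9.73 CPM, 3.99-fold. Pdk4, the kinase that shuts pyruvate dehydrogenase, fell 2.26-fold. Of 28 genes of the TCA cycle and pyruvate entry, 2 were higher and 1, Pdk4, was lower (median -0.07). The share called higher, 7.14%, lay under the 10.6% of all genes. Pdp1, the phosphatase that opposes Pdk4, rose 1.73-fold. Of 32 peroxisome genes 1, the fatty acid transporter Abcd2, was lower, 1.75-fold.

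Of 22 glycolysis genes, 4 were lower and none higher (median -0.25). Pfkfb3, which makes the activator of phosphofructokinase, fell from 354 ± 7.099 to 200.3 ± 4.27 CPM. Ldhb, a lactate dehydrogenase chain, fell 1.92-fold and Pfkp, a phosphofructokinase, 1.53-fold, but Pfkp turned to a log2 fold change of 0.17 with the 4 reference genes as the scale. Ldha, the other main chain, stood at 1496 ± 33.95 and 1359 ± 20.1 CPM (log2 fold change -0.14 ± 0.025).

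Genes that respond to low oxygen are mostly targets of the HIF factors. Of 30 tested of 31 listed, 17 were lower and 1 higher (median -0.70). Car9, a carbonic anhydrase at the cell surface, was at 445, 437, 394, 419.8 and 429 CPM at day 1 and 158, 134, 186, 194 and 167 CPM at day 12. The groups did not overlap, the change was 2.53-fold and the mean at day 0 was 559.6 CPM. Bhlhe40, a repressor that also acts in the clock, fell 2.33-fold and Ero1l, which oxidises protein thiols, 2.29-fold. Vegfa, the vascular growth factor, fell from 154 ± 1.901 to 95.5 ± 5.696 CPM, but was at a log2 fold change of 0.10 with the 4 reference genes as the scale. Car12, another carbonic anhydrase, was the exception and rose 4.58-fold. Promoters were found for 23 of the 30, so that a comparison of motif shares is void here too, and 2 matches to the core of the hypoxia element (ACGTG, either strand, in 16.6% of all promoters) are shown as examples.
Car9 (chr4:43506978-43507025, plus strand): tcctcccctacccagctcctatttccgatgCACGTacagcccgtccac
Ero1l (chr14:45318601-45318665, minus strand): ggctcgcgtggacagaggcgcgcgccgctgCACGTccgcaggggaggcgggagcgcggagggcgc

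Of 33 glutathione and antioxidant genes tested of 36 listed, 11 were lower and 1 higher (median -0.43). Hmox1, the haem oxygenase, was at 1056, 1087, 1094, 1177 and 1157 CPM at day 1 and 352, 368, 347, 348 and 359 CPM at day 12, with a mean of 567 CPM at day 0. It fell 3.14-fold between days 1 and 12. Gpx3, the secreted glutathione peroxidase, fell 3.52-fold and Gstt1, a glutathione transferase, 4.94-fold. Of 12 pentose phosphate and NADPH genes, 1 was higher and 2 were lower. The transcript of Nnt, the gene of a mitochondrial transhydrogenase, rose from 7.799 ± 0.719 to 15.6 ± 0.383 CPM. Whether cells of this mouse strain make a working enzyme from it was not tested, and no conclusion on NADPH is drawn. Prps1, which makes the ribose donor of nucleotides, and Pgd, a dehydrogenase that makes NADPH, fell 2.08-fold and 1.501-fold. Pgd sat at the fold limit and lost its call when any 1 of these 5 libraries was left out (day 1 replicates 4 and 5, day 12 replicates 1, 3 and 4), at log2 fold changes of -0.56 to -0.58. It also lost it with the library number series as a covariate (-0.57), within the lower series (-0.56), with no filter (-0.58), with the filter at 10 CPM (-0.56) and with library totals (-0.41), and its direction turned (0.20) with the 4 reference genes as the scale.

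**Figure D4:**
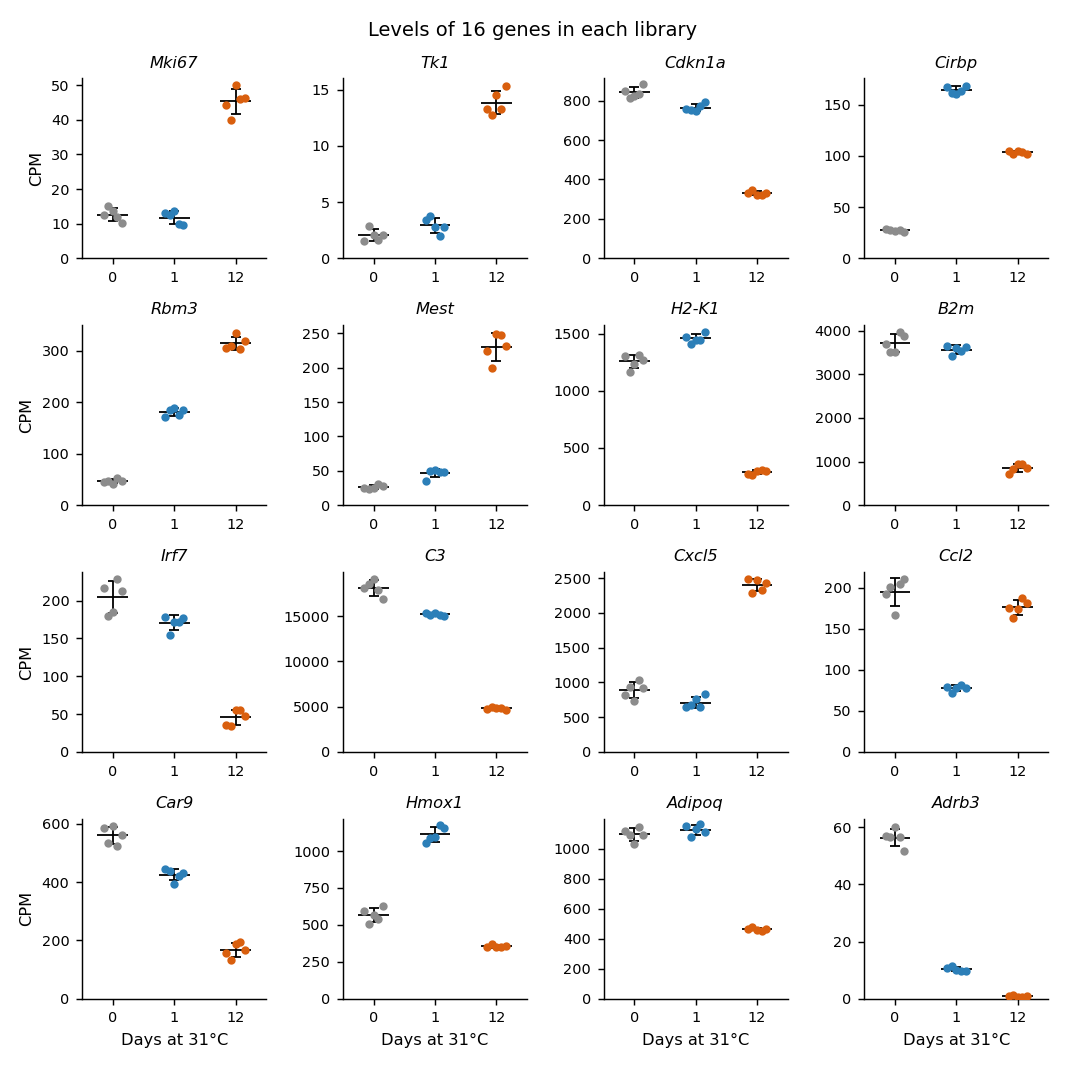
Panels give the CPM of 16 genes in the 5 libraries of day 0 (grey), day 1 (blue) and day 12 (orange), with the mean and SD as black lines and each axis starting at 0. For Mki67, Cdkn1a, B2m and Adipoq the day 1 points lie near the day 0 ones and the day 12 points apart, whereas for Ccl2 the day 12 points lie near day 0 and for Car9 and Adrb3 the levels step down over the 3 groups.

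Class I molecules carry peptides made by the immunoproteasome and pumped in by TAP, and their light chain is B2m. Of 24 antigen presentation genes tested of 28 listed, 12 were lower and 1 higher (median log2 fold change -0.81). H2-K1, a classical class I heavy chain, was at 1468, 1413, 1448, 1448 and 1511 CPM at day 1 and 271, 261, 299, 302 and 299 CPM at day 12. It was 5.09-fold lower (adjusted p = 2.64e-23) with a mean of 1257 CPM at day 0, and similar class I genes may share some of its reads. The transporter Tap1 and the immunoproteasome subunits Psmb8 and Psmb9 were called lower as well, at log2 fold changes of -1.47, -1.54 and -1.51. Cd74, the invariant chain of class II, was the 1 gene higher, at 0.70.

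Interferons switch on antiviral genes through factors such as those of the IRF family. Of 44 tested of 45 listed, 12 were lower and none higher (median -0.29). Irf7, a transcription factor that amplifies the interferon response, had 179, 155, 171, 171 and 178 CPM at day 1 and 35.98, 34.7, 54.9, 55.7 and 47.3 CPM at day 12. It was 3.74-fold lower, and 2 of the day 12 libraries lay under the other 3. Oasl1, a member of the oligoadenylate synthetase family, fell 4.49-fold and Cxcl10, a chemokine for T cells, 3.05-fold. Isg15, a ubiquitin-like modifier, was not called: its level was 41.9 to 45.4 CPM at day 1 and 30.6, 27.9, 48.9, 49.8 and 46.1 CPM at day 12 (adjusted p = 0.375). Promoters were available for 32 of the 44, too few for a comparison of motif shares. Matches to the core of the interferon response element (GAAANNGAA, either strand, in 7.13% of all promoters) are shown for Cxcl10 and for Bst2, a tether of enveloped viruses.
Cxcl10 (chr5:92349064-92349132, minus strand): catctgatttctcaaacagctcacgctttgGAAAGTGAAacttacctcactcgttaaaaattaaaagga
Bst2 (chr8:71537558-71537626, minus strand): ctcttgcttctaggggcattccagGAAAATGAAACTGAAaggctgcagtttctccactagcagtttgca

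Chemokines and interleukins moved both ways, with 10 of 32 higher and 11 lower of 38 listed. Beside Cxcl5, Cxcl2, another neutrophil chemokine, rose from 7.14, 6.94, 7.53, 8.105 and 9.86 CPM to 25.01, 23.3, 27.4, 29.1 and 25.04 CPM, and its mean at day 0 was 21.6 CPM. Ccl2, the monocyte chemokine MCP-1, rose 2.26-fold from 77.8 ± 3.83 to 176 ± 9.44 CPM, against 195 CPM at day 0. Cxcl9, an interferon-gamma target like Cxcl10, fell 2.37-fold. Ccl17, which attracts T helper cells, fell 4.05-fold to 0.6498 ± 0.222 CPM, above its mean of 0.202 CPM at day 0.

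Complement and acute phase genes had the largest share of decreases among the 34 lists, 15 of 24 tested (28 listed), with 3 higher and a median of -0.82. Beside C3, C4b and Hp, Serping1, the inhibitor of the first complement enzymes, fell from 713, 704, 653, 688 and 717 CPM to 219.8, 231, 232, 229.7 and 219 CPM. Saa1, an acute phase apolipoprotein, fell 4.03-fold at a low level, from 1.81 ± 0.412 to 0.457 ± 0.157 CPM. Steap4 was among the 3 that rose.

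Matrix genes were mixed. Of 25 collagens tested, 3 were higher and 5 lower, and of 42 matrix glycoproteins and remodelling genes 6 were higher and 10 lower, with a median of -0.09 for each list. Col14a1, a fibril-associated collagen, fell 5.22-fold to 0.764 ± 0.1404 CPM, Col8a2 2.87-fold and Col27a1 2.42-fold. Col5a3 and Col11a1, fibrillar chains, rose 1.72-fold and 1.63-fold. Col1a1, the main chain of type I collagen, did not pass the test at 2106 ± 93.1 and 1975 ± 139.9 CPM. Fbln1, a fibulin of elastic fibres, fell from 72.2, 70.3, 70.3, 69.4 and 78.03 CPM to 24.6, 25.6, 23.2, 24.5 and 22.1 CPM. Lum, a collagen-binding proteoglycan, fell 1.98-fold, while Lama2, a laminin chain, and Loxl1, a cross-linking enzyme, rose 2.24-fold and 1.67-fold. Of 28 contractile genes and SRF or YAP targets, 1 was higher and 3 lower, among them Cnn1, the smooth muscle calponin, at 4.22-fold. Their shares, 3.57% higher and 10.7% lower, compare with 10.6% and 8.53% of all genes.

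Both insulin-like growth factors fell, whereas a binding protein and an imprinted gene in their list rose. Of 16 genes of the insulin-like growth factor axis and nearby imprinted genes, 2 were higher and 7 lower (median -0.17). Igf1 fell from 214, 216, 225, 216 and 206 CPM to 76.4, 78.4, 79.9, 70.2 and 75.95 CPM. Igf2 fell 4.17-fold, with 62.8% of its exon bases shared with another model. Mest, an imprinted gene known to follow fat cell growth, rose from 35.6, 49.3, 50.7, 47.5 and 48.5 CPM to 225, 199, 249, 247 and 231 CPM. The day 12 values of Mest lay far above those of day 1, at a log2 fold change of 2.31 ± 0.078, although 23.1% of its exon bases lie opposite another gene and day 1 replicate 1 lay under the other 4. Igfbp5, a binding protein, rose 2.11-fold.

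Of 37 genes of TGF-beta, BMP and Wnt signalling tested of 39 listed, 3 were higher and 10 lower (median -0.14). The Wnt antagonist Dkk2 rose 4.45-fold to 8.27 to 11.1 CPM, and Sfrp2, another one, rose 2.51-fold, with 16.1% of its exon bases opposite another gene. Sfrp4, of the same family, fell 5.504-fold from 6.15 ± 0.706 to 1.102 ± 0.305 CPM. Gdf15, a stress cytokine, fell 4.05-fold and Wnt11 4.01-fold.

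Both cold-inducible RNA-binding proteins were called, in opposite directions. Cirbp stood at 167, 161, 160.4, 163 and 168 CPM at day 1 and at 105, 102, 104, 104 and 102 CPM at day 12, 1.59-fold lower. Rbm3 stood at 172, 185, 189.5, 175 and 184 CPM and 306, 308, 335, 304 and 318 CPM, 1.74-fold higher. The groups did not overlap for either gene, and the day 0 means were 27.4 CPM for Cirbp and 46.6 CPM for Rbm3, the lowest of the 3 groups. Cirbp lost its call with library totals as the scale (log2 fold change -0.49) and turned to 0.12 with the 4 reference genes. Of the 24 chaperones and cold-inducible proteins together, 4 were higher and 1, Cirbp, lower.

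Of 20 clock genes, 8 were lower and 1 higher (median -0.56). Bhlhe41, a repressor with 19.1% of its exon bases opposite another gene, fell 1.84-fold. The hour of harvest is not given in the sources used here. Of 22 immediate-early factors, 3 were higher and 3 lower, 13.6% each, against 10.6% and 8.53% of all genes. The higher ones were Egr1, Egr2 and Egr3, zinc finger factors, and the lower ones Nr4a1, Nr4a2 and Nr4a3, nuclear receptors without a known ligand. Egr3 rose 3.699-fold to 3.16 ± 0.492 CPM, and Nr4a1 fell 1.74-fold to 37.99 ± 3.204 CPM.

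Of 20 brown and beige markers 11 could be tested, with 1 higher and 3 lower. Dio2, the deiodinase that activates thyroid hormone, fell from 168, 236, 217, 212 and 233 CPM to 69.6, 67.6, 81.7, 72.7 and 74.8 CPM. Ppargc1a, a coactivator of mitochondrial genes, fell 2.03-fold to 1.17 ± 0.412 CPM. Ucp1, the uncoupling protein of brown fat, had too few counts for the test, with mean levels of 0.0224 CPM at day 1 and 0.0153 CPM at day 12.

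Marker lists of adipocytes and of other cell types were summed in each library. The 14 adipocyte markers summed to 6859 to 7367 CPM at day 1 and 5385 to 6014 CPM at day 12, with 2 called higher and 4 lower, and all 14 had counts. Fibroblast and progenitor markers summed to 16831 to 17541 CPM at day 1 and 14016 to 14453 CPM at day 12. Of their 13 tested members 2 were higher, among them Cd24a (1.74-fold), a surface protein of fat progenitors, and 3 lower, among them Ly6a (2.42-fold), which encodes Sca-1. Chondrocyte and osteoblast markers summed to 4280 to 4431 CPM at day 1 and 1405 to 1539 CPM at day 12. Of the 12 members, 5 were called lower and 4 had a log2 fold change above 0. Comp, at 3708 ± 71.4 and 919 ± 37.2 CPM, carried nearly all of the fall of this sum. Acan, the cartilage proteoglycan, fell 2.14-fold and Alpl, a phosphatase of bone and mineralising cells, 2.35-fold.

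Mesothelial markers summed to 105 to 112 CPM at day 1 and 190 to 215 CPM at day 12. Of 8 tested, 4 were higher and 1 lower. Igfbp5, listed with the insulin-like growth factor axis as well, carried most of the rise in this sum, from 55.6 ± 1.99 to 117 ± 16.2 CPM. Msln added to it, from 0.870 ± 0.161 to 29.3 ± 5.88 CPM. Wt1, a defining factor of mesothelium, and Gpm6a had at most 3 counts in every library, Bnc1 rose from 0 to 0.0686 to 0.479 to 0.952 CPM, and Krt8, a keratin, fell 2.06-fold. Epithelial and keratinocyte markers summed to 24.8 to 27.3 CPM at day 1, 70.6 to 79.0 CPM at day 12 and 50.9 to 57.8 CPM at day 0, with 2 of 5 tested higher and none lower. Trp63, a factor of stratified epithelia, carried most of this sum at 19.4, 20.9, 20.6, 19.5 and 21.7 CPM at day 1 and 63.9, 64.8, 56.6, 60.5 and 59.1 CPM at day 12, whereas Epcam, Krt5, Krt14 and Krt1 had at most 3 counts in every library. Macrophage markers summed to 42.5 to 48.7 CPM at day 1 and 30.2 to 34.5 CPM at day 12, with 1 of 6 tested higher and 1 lower. Cd68, a lysosomal marker of macrophages, fell 2.001-fold and Lyz2, the lysozyme of myeloid cells, rose 2.15-fold, while Itgam and Fcgr1 had at most 3 counts in every library. Lymphocyte markers summed to at most 0.251 CPM at day 1 and 0.227 CPM at day 12, none of them passing the filter. Endothelial markers summed to 3.93 to 5.32 CPM at day 1 and 4.54 to 6.80 CPM at day 12, with 3 of 6 tested higher and 2 lower. Pecam1 was at 0.166 to 0.569 CPM and then at 0.651 to 1.15 CPM, and Esam, an adhesion molecule, fell 3.23-fold. Mast cell and granulocyte markers summed to at most 1.51 CPM at day 1 and 3.75 CPM at day 12, and skeletal muscle markers to at most 2.47 and 1.23 CPM, with 2 of 2 tested higher in the first list and 2 of 3 lower in the second. Pericyte and smooth muscle markers summed to 872 to 997 CPM at day 1 and 718 to 848 CPM at day 12, and Schwann cell and neuron markers to 87.2 to 93.7 CPM and 71.5 to 79.3 CPM, with 1 of 10 higher and 4 lower in the first list and 2 of 6 higher and 1 lower in the second. The part of any cell type other than adipocytes in the gene groups above was not tested.

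**Figure D5:**
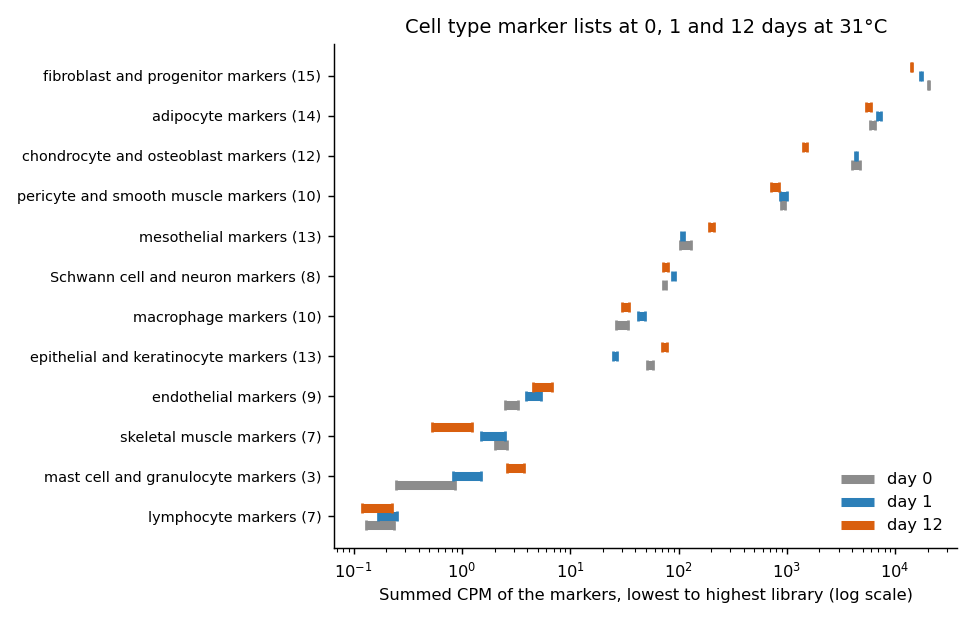
Rows are the 12 cell type marker lists with the number of markers in the count table, and each bar spans the lowest to the highest library of day 0 (grey), day 1 (blue) and day 12 (orange) in summed CPM on a log axis. Chondrocyte and osteoblast markers summed to 4280 or more at day 1 and 1539 or less at day 12, a fall carried mostly by Comp. The mesothelial and the epithelial sums lay higher at day 12, mostly through Igfbp5 and Trp63.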

How the data were processed

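RNA sequencing libraries were made from total RNA of cultured adipocytes. The authors aligned reads to mm10 with TopHat 2.0.13 and Bowtie2 2.2.1 and counted reads per gene with HTSeq, and their deposited raw counts were used here. Strandedness of counting and the annotation release are not given in the sources used here, so reads of overlapping genes may be mixed. Deposited rlog log2 values, and the authors' tables comparing each time with day 0 (log2 fold change, mean signal, test score and p-value, all from DESeq2), were not used.

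Groups came from the labels. Libraries were scaled by TMM, genes filtered with filterByExpr (minimum count 10), and all 15 libraries fitted in one quasi-likelihood model of edgeR 4.0.16 (R 4.3.3) with no covariate. The contrast of day 12 and day 1 was tested over 14293 genes with Benjamini-Hochberg adjustment, and genes were called at 0.05 and a fold change of 1.5. A count of 0 allows up to 0.0428 CPM in the shallowest library of days 1 and 12, for counting error only. The fit was first tested on simulated data.

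Genes named were the 10 largest increases and decreases (mean of at least 1 CPM, groups without overlap, no predicted or clone names), the 3 largest called changes in each direction of each list at 1 CPM or more, the 10 largest gains and losses in CPM, 30 fixed genes and called cell type markers, of which not all are printed; some genes are not reported here. Others named from a list, such as Tap1, Ect2 or Cks2, were chosen after their values were seen. The members and lists were chosen with earlier results of these data known. Coordinates and promoters follow GRCm38, the build of mm10; overlaps were taken from GENCODE. Alternatives were DESeq2 1.42.0, other scales, filters and fits, and leaving out each library.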

Additional observations from a re-analysis of the deposited data

Results flagged for a closer look

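Among the 150 genes named, each checked in the 5 libraries of day 1 and of day 12, 10 of 300 sets held a library far from the other 4, and chance gives about 1 in 20. At day 1, replicate 5 was lowest for Col12a1 (2472 CPM, the others from 3029 to 3166) and highest for Ccl17 (3.23 CPM) and for Bnc1 (0.0686 CPM, near the floor). Replicate 1 was highest for C4b (4743 CPM) and Sfrp4 (7.37 CPM) and lowest for Mest (35.6 CPM, the others from 47.5 to 50.7). At day 12, replicate 4 was highest for Gpr84 (3.36 CPM), replicate 3 for Spon1 (16.4 CPM) and Bhlhe41 (3.56 CPM), and replicate 1 for Lpin1 (69.3 CPM). Leaving out these libraries did not end the call of any of these genes that was called.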

How the results depend on the processing

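Calls counted in both directions stayed within 1.5 times of 1510 and 1219 with DESeq2 (1497 and 1261), its size factors, library totals, no filter, the 10 libraries alone, the number series as a covariate or within its lower series, and without each library in turn (1473 to 1530 higher and 1207 to 1239 lower). They moved with a filter at a mean of 10 CPM (413 and 485, fewer genes tested), glmTreat against 1.5-fold (906 and 759), adjusted p alone (4908 and 4690) and the reference gene scale (10196 and 255). Leaving B2m out of that scale, chosen after seeing the data, gave 3822 and 596. The share of calls that were lower was 44.7%, against 27.3% with library totals and 2.44% and 13.5% with the reference gene scales. Whether replicate numbers pair the libraries was not settled. Correlations of same-numbered libraries were low, from -0.01 to 0.04, but 3 of 5 day 12 libraries matched their own number best. A replicate block gave 1504 and 1214 calls and changed the call of no named gene.

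Directions of named genes that turned with the reference genes were those of Cirbp (0.12), Bgn (0.079), Slc1a4 (0.077), Aldh1l1 (0.14), Pparg (0.50), Cebpa (0.48), Plin1 (0.53), Lep (0.75), Slc2a1 (0.029), Irs2 (0.14), Pfkp (0.17), Ldha (0.65), Vegfa (0.10), Pgd (0.20), Isg15 (0.66) and Col1a1 (0.70), all log2 fold changes under that scale's median of 0.80. Without B2m these were Pparg (0.077), Cebpa (0.055), Plin1 (0.097), Lep (0.33), Ldha (0.22), Isg15 (0.24) and Col1a1 (0.27), and with library totals Lep (0.14), Ldha (0.034), Isg15 (0.052) and Col1a1 (0.079), against a median of 0.18. When day 1 replicates 2 and 3 and day 12 replicate 4 were left out singly, Lep turned to 0.043, 0.0048 and 0.063. Calls lost without turning with the reference genes were 33, at log2 fold changes from -0.56 (Car9) to -0.013 (Abcd2). The 8 gained were Scd1, Spp1, Thbs1, Fn1, Timp2, Col12a1, Fabp4 and Myc, at 0.83 (Fn1) to 1.25 (Myc). The numbers lost and gained were 17 and 5 without B2m and 8 and 1 (Myc, 0.64) with library totals. Beside these scales and the fits without 1 library, Pgd alone of the genes checked changed its call, with either other filter, the number series as a covariate and within its lower series. Lep ranged from -0.17 to 0.063 over the fits without 1 library and was called in none of them.

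Medians of lists relative to all genes moved by more than the spread between libraries with the filter at 10 CPM: DNA replication 0.48, lipogenesis 0.057, triglyceride storage 0.011 (turned from -0.083), lipolysis -0.13, adipokines -0.55, fatty acid oxidation -0.15, TCA cycle -0.058, glycolysis -0.18, antigen presentation -1.03, collagens -0.18, contractile genes 0.15 and chaperones 0.076. With the 10 libraries alone, antigen presentation was at -1.06, collagens at -0.15 and macrophage markers at -0.52, and within the lower number series cholesterol genes were at 0.60. Without 1 library the ranges were 0.50 to 0.59 for cholesterol genes, -0.092 to -0.0045 for triglyceride storage (the highest without day 1 replicate 5), -0.31 to -0.22 for adipokines, -0.14 to -0.066 for collagens, -0.43 to -0.082 for macrophage markers (lowest without day 12 replicate 5) and -0.12 to 0.15 for brown and beige markers, which turned without day 1 replicate 2. The cause was not tested.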
